A study of Mus musculus with 13 samples.

Results

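Bivalent domains of neural stem cells (NSCs) that carried no mark in oligodendrocyte progenitor cells (OPCs) made up 3643 of the 6826 NSC bivalent domains (53.4%). An NSC bivalent domain was a segment of the genome in which a listed H3K4me3 called peak and a listed H3K27me3 called peak of NSCs overlapped by at least 1 bp, taken over the full extent of the joined peaks. The members were selected on the absence of OPC peaks: no listed H3K4me3 or H3K27me3 called peak of OPCs overlapped them. Their NSC marks and their lack of OPC marks therefore come from the selection and are given only as a description. The remaining NSC bivalent domains overlapped H3K4me3 alone in OPCs (638 domains), H3K27me3 alone (1609 domains) or both marks (936 domains), and serve as the comparison. Of the members, 3631 lay on chromosomes 1 to 19, X and Y, and 12 lay on unplaced or unlocalized contigs.

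The study followed mouse cells through 3 stages of oligodendrocyte formation by ChIP-Seq, with 1 library per cell type and mark. NSCs were cultured from the cortex of embryonic day 14.5 CD-1 mice according to the growth protocol, although the strain label reads C57BL/6. OPCs were taken by immunopanning with an antibody to PDGFRα, and newly formed oligodendrocytes (NFOs) with anti-GalC, from the brains of C57BL/6 mice at postnatal day 7, after microglia and endothelial cells had been depleted. All cells were untreated, no group carried a genetic change, and OLIG2 was mapped in OPCs and NFOs. Because the NSCs were a culture and the other cells were freshly purified, cell stage, strain and culture cannot be told apart in any comparison between them.

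H3K4me3 is placed by the COMPASS family of methyltransferases and marks active or poised promoters, mostly those with CpG islands. H3K27me3 is placed by Polycomb repressive complex PRC2 and accompanies repressed genes. Promoters that hold both marks in stem cells often belong to developmental regulators, which keep one mark or the other as cells commit to a lineage. OLIG2 is a basic helix-loop-helix transcription factor needed for oligodendrocyte specification, and factors of this class bind short E-box sequences.

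The members looked unlike such promoters at the level of sequence. Below, the segment shared by the NSC marks is shown for a typical member (near the medians of width and enrichment), for the members with the highest enrichment of H3K4me3 and H3K27me3 in NSCs and of H3K4me3 in NFOs, and for members near oligodendrocyte genes. All are plus-strand sequence of GRCm38 from the RefSeq genome, 5′ to 3′, and capitals mark the longest unbroken run of A or of T where it reached 12 bases.
Parvb, typical member, chr15:84273878-84274068: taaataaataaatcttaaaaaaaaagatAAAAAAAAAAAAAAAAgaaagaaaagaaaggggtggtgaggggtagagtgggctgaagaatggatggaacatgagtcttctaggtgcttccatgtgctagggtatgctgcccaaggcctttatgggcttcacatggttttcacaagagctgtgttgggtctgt
Tmco3, highest NSC H3K4me3, chr8:13289924-13290168: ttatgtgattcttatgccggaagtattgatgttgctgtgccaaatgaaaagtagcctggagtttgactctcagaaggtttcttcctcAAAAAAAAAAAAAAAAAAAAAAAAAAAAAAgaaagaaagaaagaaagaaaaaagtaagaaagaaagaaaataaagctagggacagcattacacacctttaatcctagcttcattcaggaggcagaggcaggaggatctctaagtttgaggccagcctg
Trank1, highest NSC H3K27me3, chr9:111315553-111315782: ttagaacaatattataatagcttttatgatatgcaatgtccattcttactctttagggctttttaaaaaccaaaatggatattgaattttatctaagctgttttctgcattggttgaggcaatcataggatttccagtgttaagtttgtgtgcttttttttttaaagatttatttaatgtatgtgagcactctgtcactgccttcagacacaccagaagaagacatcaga
Gm49371, highest NFO H3K4me3, chr12:19505806-19505985: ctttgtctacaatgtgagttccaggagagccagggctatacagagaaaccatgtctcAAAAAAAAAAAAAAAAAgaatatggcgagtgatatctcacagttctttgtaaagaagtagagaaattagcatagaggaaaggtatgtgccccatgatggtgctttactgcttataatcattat
Aspa, oligodendrocyte gene, chr11:73323615-73323764: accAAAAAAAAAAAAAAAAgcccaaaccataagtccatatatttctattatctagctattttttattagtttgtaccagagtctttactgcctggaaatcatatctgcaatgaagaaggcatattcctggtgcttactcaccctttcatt
Ugt8a, oligodendrocyte gene, chr3:125939844-125940052: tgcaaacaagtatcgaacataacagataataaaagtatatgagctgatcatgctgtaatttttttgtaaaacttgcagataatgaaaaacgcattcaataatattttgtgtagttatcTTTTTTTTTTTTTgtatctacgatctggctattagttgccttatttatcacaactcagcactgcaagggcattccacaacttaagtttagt

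In 5 of these 6 segments the run reached 12 bases, with a longest run of 30 bases at Tmco3, and in the Trank1 segment it stopped at 10. CpG dinucleotides numbered 3 in the Ugt8a segment, 1 in those of Tmco3 and Gm49371, and 0 in those of Parvb, Trank1 and Aspa. For contrast, a CpG-rich member is set beside an NSC bivalent domain that kept both marks in OPCs, with each CpG in capitals. Both were picked for a high CpG observed/expected. The shared segment of the domain with both marks had 0.715, against a median of 0.481 over its class. The member covered the start of Emilin3, which encodes an extracellular matrix protein, and the other domain the start of Fendrr, a lncRNA next to the developmental factor gene Foxf1.
Emilin3, no OPC mark, chr2:160911900-160912070: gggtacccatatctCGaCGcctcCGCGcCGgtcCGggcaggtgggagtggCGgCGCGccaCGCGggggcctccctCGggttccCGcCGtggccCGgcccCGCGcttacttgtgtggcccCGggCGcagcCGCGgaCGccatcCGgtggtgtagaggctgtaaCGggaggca
Fendrr, both OPC marks, chr8:121083232-121083519: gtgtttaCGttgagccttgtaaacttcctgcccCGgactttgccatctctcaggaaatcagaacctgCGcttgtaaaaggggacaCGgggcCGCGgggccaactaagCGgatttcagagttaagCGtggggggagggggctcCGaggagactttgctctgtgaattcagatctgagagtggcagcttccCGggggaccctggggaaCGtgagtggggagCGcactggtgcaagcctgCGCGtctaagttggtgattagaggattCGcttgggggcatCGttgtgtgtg

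The Emilin3 segment held 24 CpGs in 171 bases and the Fendrr segment 16 in 288, and their longest runs of A or T were 2 and 4 bases. Only 8 of 3631 members (0.220%, 95% interval 0.0952 to 0.434%) had a CpG island-like composition over the domain (GC over 50% and CpG observed/expected over 0.6), against 6.51% of all NSC bivalent domains. The share was 21.2% among domains with OPC H3K4me3 alone, 2.24% with OPC H3K27me3 alone and 28.6% with both. All intervals are exact Clopper-Pearson intervals that cover counting over domains and no variation between libraries, since domains of the same libraries are not replicates. The 8 island-like members lay nearest to Tmem196, A630089N07Rik, Majin, Htr7, Rbp4, Emilin3, Adam22 and Obox7, and 4 of them (Majin, Htr7, Rbp4 and Emilin3) covered a transcription start site (TSS).

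Over all placed members, median GC content was 40.9% and median CpG observed/expected was 0.177, beside 41.7% and 0.190 for the whole of chromosomes 1 to 19, X and Y. Domains with OPC H3K4me3 alone, H3K27me3 alone and both marks had medians of 0.520, 0.221 and 0.536. A member had 49.0% of its bases marked as repeats (soft-masked) at the median, the genome 36.4%, and the 3 comparison classes 20.2%, 34.2% and 15.3%. No CpG at all was held by 338 members (9.31%), against 5.99% of all NSC bivalent domains and 3.54% of those with OPC H3K27me3 alone. Both of these sets were wider at the median (738 and 803 bp, against 382 bp for members). The median CpG observed/expected of members (interval 0.172 to 0.182) lay slightly below the value of the pooled genome. A median over short segments and a pooled value are unlike measures, for CpG and for repeats alike. Genome segments of the same width were not measured. The distance to the other classes was small in narrow domains and large in wide ones. Under 400 bp the median was 0.166 for members against 0.198 for the 30 placed domains with OPC H3K4me3 alone, 0.184 with OPC H3K27me3 alone and 0.243 with both, and from 2000 bp it was 0.192 against 0.555, 0.299 and 0.539. The soft-masked share of members under 400 bp was 52.5% at the median, against 46.9%, 44.8% and 21.8%.

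**Figure D1:**
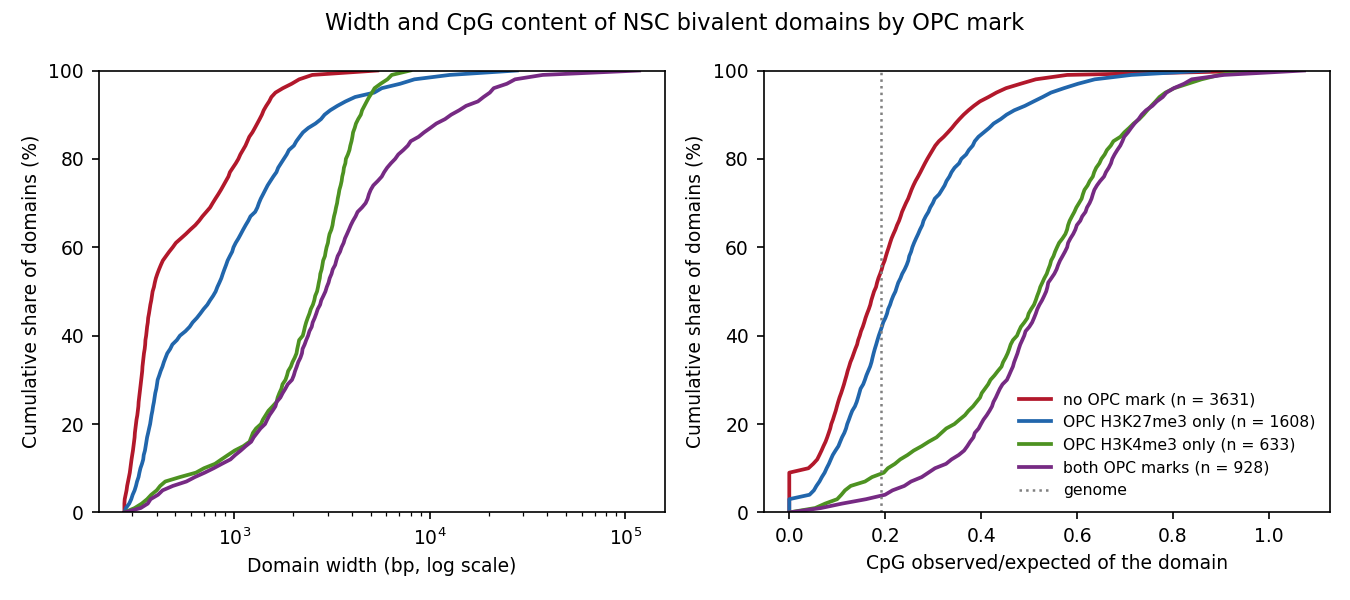
Cumulative share of domains (%) against domain width in bp on a log scale (left) and against CpG observed/expected (right). Each class of NSC bivalent domain has 1 line. The left panel includes domains on contigs, and the right panel covers chromosomes 1 to 19, X and Y alone. The dotted line is the genome's CpG observed/expected of 0.190. The members (no OPC mark) lie farthest to the left in both panels, and domains with OPC H3K27me3 alone lie nearer to them than do domains with OPC H3K4me3.

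Runs of A or T were frequent in members and in narrow NSC peaks generally. A run of at least 12 A or 12 T lay in the 200 bp around the middle of the shared segment in 2651 of 3631 members (73.0%, 71.5 to 74.4%), and in 2.37% of all 200 bp windows of the genome (313665 of 13237130). It lay in 56.5% of NSC bivalent domains with any OPC mark, from 40.2% with both marks to 66.3% with H3K27me3 alone. Windows at the middle of single listed peaks held such a run at 35.2% of NSC H3K4me3 and 57.6% of NSC H3K27me3 peaks, but at 2.66% of OPC H3K4me3, 12.4% of OPC H3K27me3, 10.1% of NFO H3K4me3 and 2.96% of NFO H3K27me3 peaks. In the NSC H3K4me3 list the runs sat mostly in narrow peaks, at 74.6% of those under 300 bp and 8.82% of wider ones, and for NSC H3K27me3 these shares were 87.1% and 43.5%. OLIG2 peaks held one at 63.4% in OPCs and 60.5% in NFOs. The runs sat within the domains: the shared segment of 80.8% of members and of 80.0% of domains with any OPC mark contained one. Over the whole domain the shares were 89.0% and 90.1%. These 2 counts searched unequal lengths. The shared segment was 202 bp at the median in members and 295 bp in domains with any OPC mark, and the domain 382 and 1575 bp. The near-equal shares therefore do not compare like with like, whereas the 200 bp windows were of equal length. Among members the share of bases in a run fell from 11.1% at 50 bp from the middle of the segment to 0.326% at 990 bp.

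**Figure D2:**
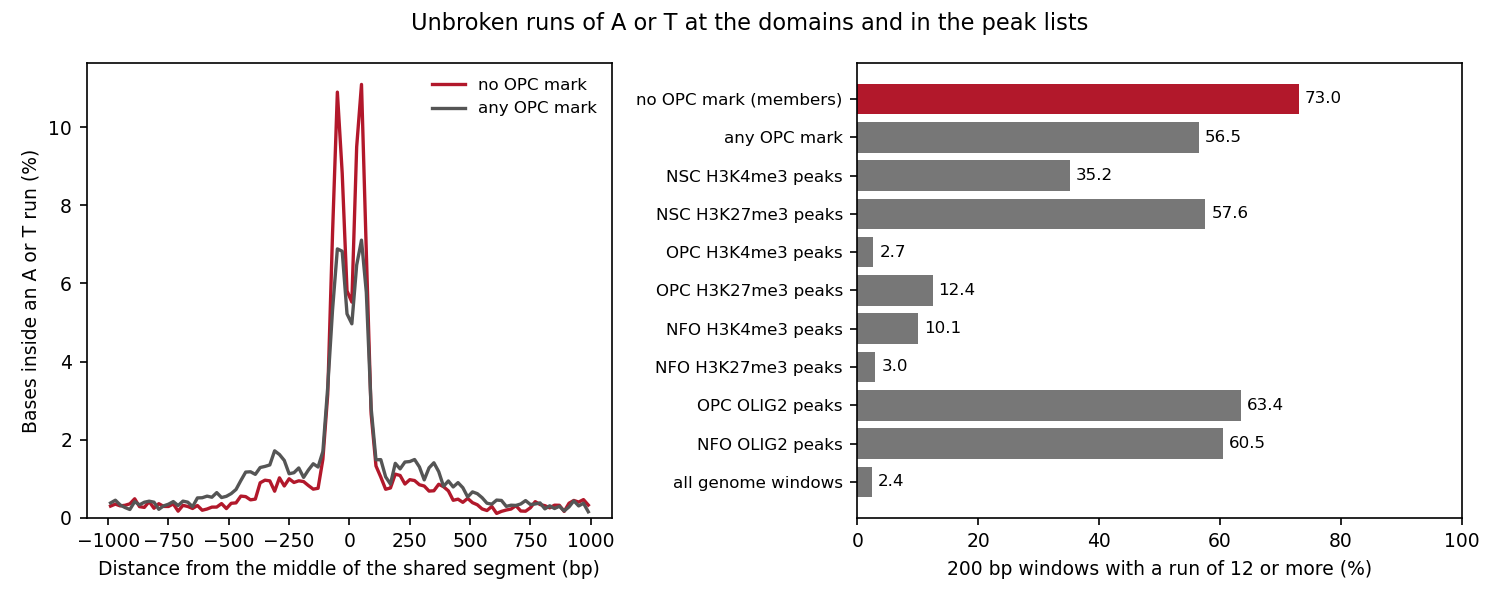
Left, share of bases (%) inside an unbroken run of at least 12 A or T against distance (bp) from the middle of the shared segment, for members (red) and domains with any OPC mark (grey); right, share (%) of 200 bp windows at the middle of each kind of region that hold such a run. Both classes of domain peak near 50 bp from the middle, and the NSC and OLIG2 lists stand apart from the OPC and NFO histone lists and from the genome (2.37%).

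Members with a run in the 200 bp window at the middle of the shared segment were narrower than members without (median 358 against 717 bp). Over all widths, 2651 of the 4440 placed domains with a run (59.7%) and 980 of the 2360 without (41.5%) overlapped no OPC peak, but this order turned with width. Under 400 bp a run lay in 86.7% of members against 91.5% of domains with any OPC mark, and from 400 to under 1000 bp in 50.6% against 63.0%. From 1000 to under 2000 bp it lay in 65.2% against 57.6%, and from 2000 bp in 62.9% against 39.0%. The peak names show single-end reads for NSC histone libraries and paired-end reads for OPC and NFO histone libraries. Read type and cell type cannot be told apart here. Per the study methods, the OLIG2 libraries were made with the DNA SMART ChIP-Seq Kit, and no kit is stated for the histone libraries. Whether read type or library preparation has a part in the runs was not tested. The shares near a TSS, with NFO marks and near OLIG2 peaks are therefore also given below for the 980 members without a run. Here and below, without a run refers to this 200 bp window alone. Many of the 980 members hold a run elsewhere, since 89.0% of all placed members had one somewhere in the domain.

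Members were narrow. Their median width was 382 bp (quartiles 324 and 906 bp, range 274 to 5391 bp), whereas domains with OPC H3K4me3 alone, OPC H3K27me3 alone and both OPC marks had median widths of 2651, 803 and 2926.5 bp. In 3551 members the domain consisted of 1 peak of each mark, and in 1741 of these (49.0%) the H3K4me3 peak lay wholly inside the H3K27me3 peak. The median H3K4me3 peak was 231 bp wide and the median H3K27me3 peak 343 bp, with 474 H3K4me3 peaks at the list's shortest width of 162 bp and 384 H3K27me3 peaks at that list's shortest, 274 bp. The marks shared 202 bp at the median.

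The share of NSC bivalent domains that were members fell with each step in width. It was 78.8% of domains under 400 bp (1946 of 2468), 58.3% from 400 to under 1000 bp (915 of 1569), 50.7% from 1000 to under 2000 bp (680 of 1342) and 7.05% from 2000 bp (102 of 1447). Width belongs to the NSC peaks that formed the members, so this order is a description of what the selection took.

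NSC enrichment was modest at the typical member and reached high values at a few. Fold enrichment over the input had medians of 3.85 for H3K4me3 (quartiles 3.35 and 4.56) and 3.86 for H3K27me3 (3.28 and 4.52). The domains with OPC H3K27me3 alone had nearly the same H3K4me3 median (3.84) and a higher H3K27me3 median (4.28), those with OPC H3K4me3 alone a higher H3K4me3 median (8.20) and a lower H3K27me3 median (3.5), and those with both marks 6.34 and 4.28. Both marks passed the filter that the methods state for histone marks (fold enrichment over 3.5) in 1741 members (47.8%), against 52.4% of all NSC bivalent domains and 47.6% of those with OPC H3K4me3 alone.

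The highest H3K4me3 enrichment among members was 11.7, in the body of Tmco3, which encodes a transmembrane and coiled-coil protein, 1625 bp from its nearest TSS. It was 11.4 upstream of Dcaf5, which encodes a substrate receptor of ubiquitin ligases, and 10.9 in an intron of Wdr17. Upstream of Kdm5c, the gene of an H3K4 demethylase, it was 10.6, and in an intron of Nxph1, which encodes a ligand of neurexins, 9.85. Pcdhga12 (9.75), a clustered protocadherin, Phf3 (9.75) and Serpinb6e (9.48) completed the first 8. The Serpinb6e member was distal, 80701 bp from the TSS of that gene. H3K27me3 enrichment at these 8 members ran from 3.5 (Dcaf5) to 6.41 (Phf3), and none of them overlapped an NFO peak of either mark. A run of at least 12 A or T lay in the window of each of these members except that of Pcdhga12.

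The highest H3K27me3 enrichment was 12.8 in an intron of Trank1, with H3K4me3 at 5.49. Cul1 (9.84), the scaffold of SCF ubiquitin ligases, Ccdc73 (9.79), Fcgr1 (9.43), an Fc receptor, Gm46910 (9.17), Pld5 (9.13), Skap2 (8.97) and 4930447C04Rik (8.81) followed. The Cul1, Gm46910 and Fcgr1 members were distal, 65638, 19719 and 14497 bp from the TSS of the named gene. None of these 8 overlapped an NFO peak either, and the windows of Ccdc73, Fcgr1 and 4930447C04Rik alone held a run of at least 12.

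Some members lay close to an OPC peak outside the domain. An OPC H3K4me3 peak lay within 2 kb of 361 members (9.91%), against 16.0% of domains with OPC H3K27me3 alone. The share was 32.1% of all NSC bivalent domains, which include those that overlap such a peak. Over all members the nearest OPC H3K4me3 peak was 20526 bp away at the median and the nearest OPC H3K27me3 peak 39210 bp. The Tmco3 member lay 753 bp from an OPC H3K4me3 peak of 6.66 that covered TSSs of the gene, where NSC H3K4me3 was listed at 9.59. At Trank1 an OPC H3K4me3 peak of 5.54 covered the TSS, and an NFO H3K27me3 peak of 4.26 lay between the TSS and the member. The same TSS lay in a separate NSC bivalent domain, which overlapped OPC peaks of both marks. The Emilin3 member had an OPC H3K27me3 peak of 3.90 at 160 bp and overlapped an NFO H3K27me3 peak of 3.56.

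**Figure D3:**
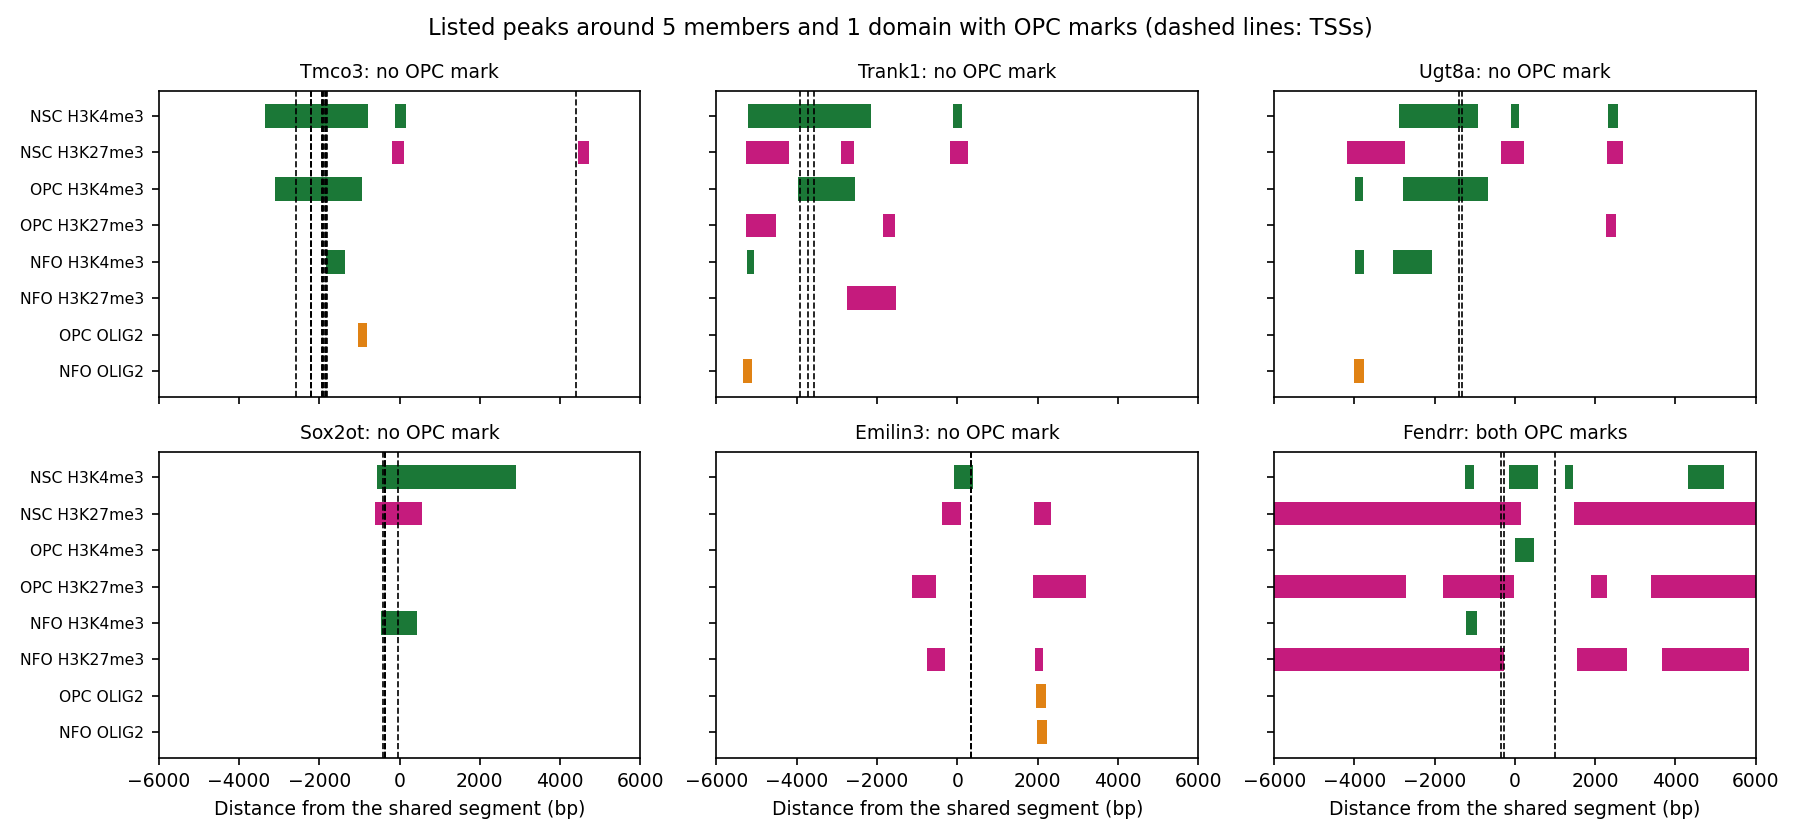
Listed called peaks (bars) of each cell type and target against distance (bp) from the middle of the segment shared by the NSC marks, for 5 members and for the Fendrr domain with both OPC marks; dashed lines are TSSs, and bars are cut at 6000 bp. At Tmco3, Trank1 and Ugt8a the TSS beside the member carries OPC H3K4me3, at Sox2ot no OPC peak is in view, and at Fendrr wide H3K27me3 peaks extend beyond the window in all 3 cell types.

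The overlap rules left members close to both edges. The fewest bases shared by the NSC marks were 1 bp, at Znrd1as, Dpf2 and Cpsf7, and the closest pairs just outside were 0 bp (H2al1n) and 1 bp (Sf3b1 and Gm26885) apart. Members nearest to an OPC peak lay 5 bp (Gm11267), 21 bp (Slc27a1) and 39 bp (Gm2861) from it, and the domains just outside had 18 bp (Zscan4b), 33 bp (Gm33029) and 47 bp (Sh3pxd2a) covered by one.

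Few members lay at promoters. Within 1 kb of a TSS were 266 of 3631 members (7.33%, 6.50 to 8.22%), against 26.1% of all NSC bivalent domains, 79.6% of those with OPC H3K4me3 alone, 17.5% of those with OPC H3K27me3 alone and 77.8% of those with both. A TSS lay inside 84 members (2.31%). A further 621 members (17.1%) lay 1 to 3 kb from a TSS, 138 (3.80%) in other exons, 1187 (32.7%) in introns and 1414 (38.9%) in distal intergenic sequence. Among the members without a run the share within 1 kb of a TSS was 8.06% (79 of 980).

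**Figure D4:**
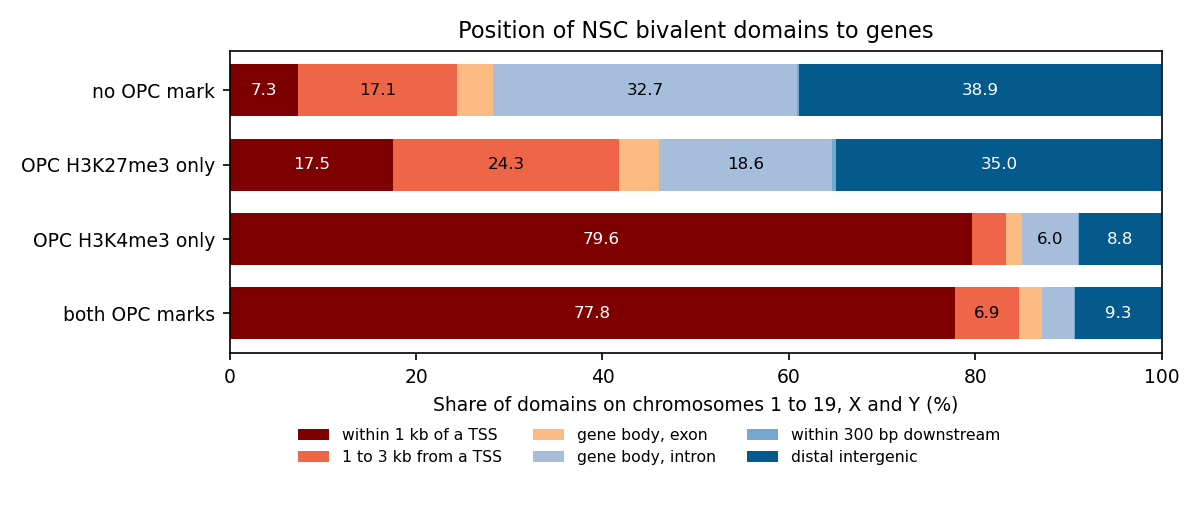
Share (%) of domains on chromosomes 1 to 19, X and Y in each class of position to genes, 1 bar per class of OPC mark, with shares over 5% printed in the bars. Introns and distal intergenic sequence hold most members, whereas the 2 classes with OPC H3K4me3 lie mostly within 1 kb of a TSS.

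Position also varied with width. Members within 1 kb of a TSS made up 5.91% of those under 400 bp, 7.56% from 400 to under 1000 bp, 9.62% from 1000 to under 2000 bp and 17.5% from 2000 bp (17 of 97, 10.6 to 26.6%). From 2000 bp the other classes reached 95.7% (OPC H3K4me3 alone), 39.9% (OPC H3K27me3 alone) and 90.4% (both). Under 400 bp the interval of members (4.91 to 7.05%) overlapped that of domains with OPC H3K27me3 alone (5.99 to 11.3%), and in the 3 wider classes it did not. Of the 621 members 1 to 3 kb from a TSS, 362 (58.3%, 54.3 to 62.2%) had an OPC H3K4me3 peak within 3 kb, against 64.0% of all NSC bivalent domains at that distance and 65.1% of those with OPC H3K27me3 alone.

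The widest H3K4me3 peak in a placed member covered TSSs of Sox2ot, a lncRNA whose locus contains Sox2. That peak was 3472 bp wide with an enrichment of 8.14 in NSCs, and it shared 1140 bp with an H3K27me3 peak of 3.68. The nearest OPC H3K4me3 peak was 14362 bp away, and NFO H3K4me3 was listed at the member at 3.01, below the filter of the methods. In the paper, Sox2ot belongs to a cluster of lncRNAs expressed highly in OPCs and in neither of the other cell types. The lack of OPC peaks at this member is thus no measure of the gene's expression. Some other members at a TSS are given from the small CpG island-like set, which is not typical of members. They were Htr7, a serotonin receptor gene (H3K4me3 4.87, H3K27me3 3.03, with an OPC H3K27me3 peak 347 bp away), Rbp4, which encodes the plasma retinol carrier (3.71 and 4.62), and Emilin3 (4.93 and 3.12).

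Counted by genes, 646 of 43193 (1.50%) had a member within 2 kb of a TSS, of which 451 were protein-coding and 195 were lncRNAs. Members without a run lay that near to 194 genes. An NSC bivalent domain of any class lay that near to 2952 genes, so 21.9% of these had a member. Of the 646 genes, 42 (6.50%) also had an OPC-marked NSC bivalent domain within 2 kb of a TSS. An OPC H3K4me3 peak lay within 2 kb of a TSS of 409 of the 646 (63.3%) and an OPC H3K27me3 peak of 71 (11.0%). Most of these genes thus carried H3K4me3 near a TSS in OPCs, outside the domain itself.

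Protein-coding genes and lncRNAs differed in this respect. OPC H3K4me3 lay near the TSS of 353 of 451 protein-coding genes with a member (78.3%, 74.2 to 82.0%) and of 56 of 195 lncRNAs (28.7%, 22.5 to 35.6%). Among all genes with an NSC H3K4me3 peak within 2 kb of a TSS, the shares were 92.5% and 77.2%, and among all genes 60.8% and 17.9%.

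No member lay near the listed developmental regulators, the classical bivalent genes. Of 83 developmental transcription factors, 70 had an NSC bivalent domain within 2 kb of a TSS, each of the 70 had at least 1 that was marked in OPCs, and 0 had a member, which allows up to 3.61% of the list. That limit lies above the 1.50% of all genes and the 2.06% of protein-coding genes with a member, so the count over the list does not separate it from other genes. Among genes with an NSC bivalent domain the list had 0 of 70, beside 21.9% of all such genes. The list was written with earlier results of these data known, and domain width was not matched. This contrast is therefore a description alone. Counts were also 0 for proneural and neuronal fate factors (0 of 31, up to 9.68%, with 22 genes having another NSC bivalent domain) and for Wnt, BMP, Fgf and hedgehog ligands and inhibitors (0 of 49, up to 6.12%, 22 genes). Counts of 0 also came from the neural stem cell (0 of 20, up to 15%), astrocyte (0 of 15, up to 20%), microglia and immune (0 of 16, up to 18.8%) and endothelial, pericyte and fibroblast lists (0 of 17, up to 17.6%), each with at most 3 genes that had any NSC bivalent domain.

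The remaining lists had 5 genes with a member. Among 30 oligodendrocyte lineage genes these were Aspa, which encodes the aspartoacylase of oligodendrocytes, and Ugt8a, the enzyme of galactocerebroside synthesis. Among 48 neuronal and synaptic genes they were Pvalb, a calcium buffer of interneurons, and Gabrb1, a subunit of GABA-A receptors. Among 52 adhesion and guidance genes it was Epha6, an ephrin receptor. Over the whole lists these made 6.67%, 4.17% and 1.92%, beside 1.50% of all genes. Of list genes with an NSC bivalent domain, those with a member were 2 of 7 (28.6%), 2 of 20 (10%) and 1 of 10 (10%), beside 21.9% over all genes. These counts are too small to set a list apart.

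At Aspa the member lay 553 bp from a TSS, with H3K4me3 at 3.13 and H3K27me3 at 4.38 in NSCs, and the nearest OPC H3K4me3 peak was 77610 bp away. At Ugt8a the marks were 5.84 and 6.26, and the OPC H3K4me3 peak over the TSS (7.94) ended 314 bp from the member. In NFOs an H3K4me3 peak of 8.15 lay beyond the TSS as seen from the member. Both genes serve myelin lipid synthesis, and the TSS of Ugt8a carried H3K4me3 in OPCs.

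The Pvalb member lay 1203 bp upstream of a TSS (4.33 and 5.37), 33569 bp from OPC H3K4me3. The Gabrb1 member (3.83 and 4.84) lay 955 bp from the TSS of the neighbouring Gabra4, with OPC H3K4me3 908 bp away. The Epha6 member (3.43 and 3.68) lay 1020 bp from the TSS of the lncRNA gene Gm9017, with OPC H3K4me3 1235 bp away. Of these 5 members, that of Gabrb1 alone had no run of 12 A or T in its window, where the longest was 11 bases.

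The NFO lists took no part in the selection, and they too held few peaks at the members. H3K4me3 of NFOs overlapped 377 of 3643 members (10.3%, 9.38 to 11.4%), against 28.3% of all NSC bivalent domains, 78.4% of those with OPC H3K4me3 alone, 19.7% with OPC H3K27me3 alone and 79.0% with both. H3K27me3 of NFOs overlapped 18 members (0.494%, 0.293 to 0.780%), against 19.1% of all NSC bivalent domains and 1.88%, 38.4% and 70.0% of the 3 comparison classes. Neither NFO mark was listed at 3251 members (89.2%), and both were at 3. Among members without a run, 11.0% overlapped NFO H3K4me3 and 0.612% NFO H3K27me3.

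For NFO H3K4me3 members had the lowest share in each class of width. This mark overlapped 7.40%, 13.3%, 12.4% and 26.5% of members in order of width, and in the narrowest class it overlapped 80.6% (25 of 31) of domains with OPC H3K4me3 alone and 73.0% (27 of 37) of those with both marks. Domains with OPC H3K27me3 alone came closest, with 10.6% under 400 bp (7.90 to 13.8%, against 6.28 to 8.65% for members) and 30.7% from 2000 bp. In the narrowest and the widest class the intervals of members and of these domains overlapped, and in the 2 classes between them they did not. For NFO H3K27me3 members had 0.411%, 0.437%, 0.588% and 1.96% in order of width, below domains with OPC H3K27me3 alone (24.2% or more) and those with both (43.2% or more). Domains with OPC H3K4me3 alone were not separated from members within widths, with 0 of 31, 0 of 58, 4 of 131 (3.05%) and 8 of 418 (1.91%).

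**Figure D5:**
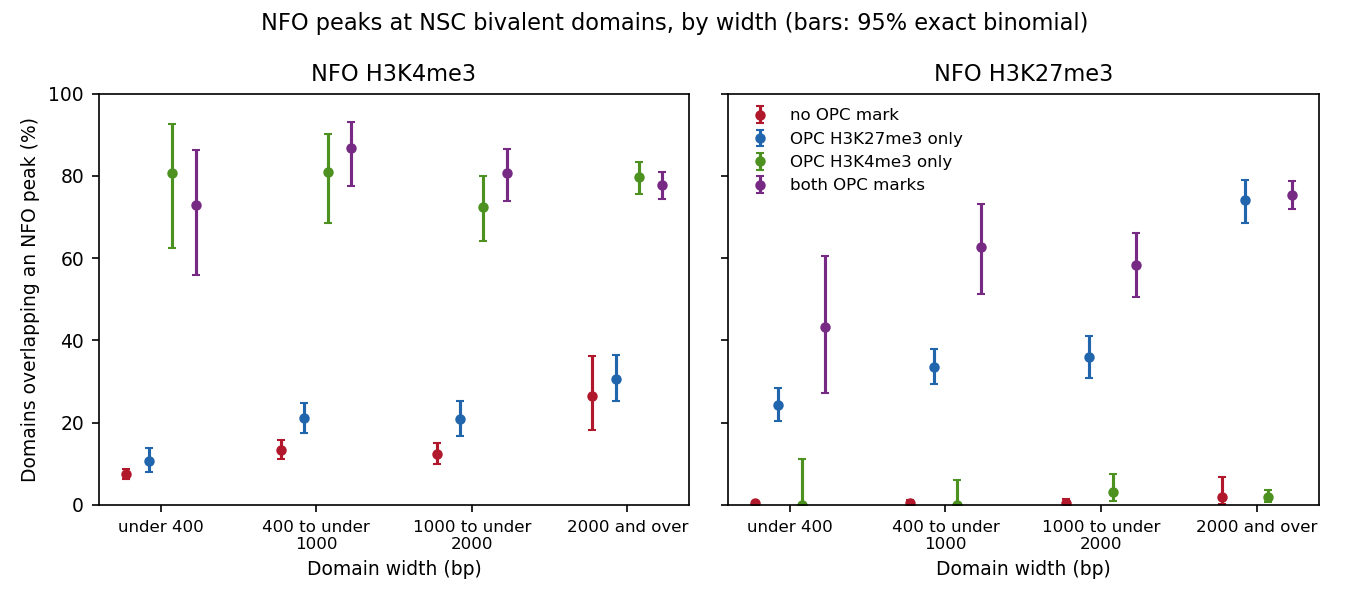
Share (%) of NSC bivalent domains that overlap an NFO H3K4me3 peak (left) or NFO H3K27me3 peak (right) in 4 classes of domain width (bp), with 1 colour per class of OPC mark; bars are 95% exact binomial intervals. Members (red) lie between 7.40% and 26.5% for H3K4me3 and reach at most 1.96% for H3K27me3.

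Where an NFO H3K4me3 peak was listed at a member, it was weak. Its median enrichment was 3.56, beside 6.28 and 6.53 at domains with OPC H3K4me3 alone and with both marks, 3.57 at those with OPC H3K27me3 alone and 4.20 over all NFO H3K4me3 peaks, and 194 of the 377 were over 3.5. The share of members with NFO H3K4me3 was 7.68%, 7.46%, 9.45% and 16.8% in 4 equal groups of members ordered from low to high NSC H3K4me3 enrichment, and the interval of the last group (14.4 to 19.4%) lay above the others. Ordered by NSC H3K27me3 enrichment the share went the other way, from 12.6% and 11.2% to 10.0% and 7.57%.

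The strongest NFO H3K4me3 among placed members was 10.6, at a distal member 54070 bp from the lncRNA gene Gm49371, where NSC H3K4me3 was 5.37 and NSC H3K27me3 3.89. The next was 8.37, at a distal member 23498 bp from a TSS of Tmem67, which encodes a ciliary membrane protein. Then came 7.94 at a member 2802 bp from Irf2bpl, a transcriptional regulator gene, and 7.36 at a distal member 26967 bp from Zfp951. A contig carried 2 more members at 8.51 and 8.15. The Irf2bpl member also overlapped an OLIG2 peak of OPCs with an enrichment of 14.1.

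For NFO H3K27me3 the placed members were led by Gm48530 (5.63), Hlf (4.33), a PAR bZIP transcription factor gene, and Cyp27b1 (4.32), the gene of the enzyme that completes vitamin D activation. Contig members reached 4.72, 4.64 and 4.32. The members with both NFO marks lay on a contig (8.51 for H3K4me3 and 4.64 for H3K27me3), nearest to Gm48530 (6.93 and 5.63) and nearest to Gm38708 (7.05 and 3.24). The Gm48530 and Gm38708 members were distal, 15213 and 16457 bp from the TSS of the named gene. Contigs are short assembled pieces rich in repeats, and the uniqueness of read placement on them was not tested.

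OLIG2 peaks lay near members slightly less often than near NSC bivalent domains of all widths together. An OLIG2 peak of OPCs lay within 5 kb of 289 members (7.93%, 7.08 to 8.86%), against 9.73% of all NSC bivalent domains, and one of NFOs within 5 kb of 607 (16.7%, 15.5 to 17.9%), against 18.3%. Domains with OPC H3K4me3 alone had shares of 15.0% and 22.9%, those with OPC H3K27me3 alone 9.51% and 18.6%, and those with both 13.5% and 20.7%. Within widths the gap to domains with OPC H3K27me3 alone had no single direction. Under 400 bp the OPC shares were 6.58% and 10.4% and the NFO shares 14.7% and 15.6%, from 400 to under 1000 bp 8.98% and 8.97% and 18.8% and 18.7%, from 1000 to under 2000 bp 10.4% and 11.0% and 18.8% and 24.4%, and from 2000 bp 9.28% and 7.25% and 22.7% and 15.6%, with members first in each pair. All these intervals overlapped. An OLIG2 peak overlapped 148 members (4.06%) in OPCs and 319 (8.76%) in NFOs, against 5.70% and 10.5% of all NSC bivalent domains. Without the members that held a run, the 5 kb shares were 7.76% and 16.7%.

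The strongest OLIG2 peak at a member lay in an intron of Kirrel3, a synaptic adhesion molecule gene, with an enrichment of 47.5 in OPCs and 17.5 in NFOs. It was followed by NFO peaks near the lncRNA genes Gm52440 (31.7) and Gm34664 (30.0) and an OPC peak near Gm11713 (28.0). NFO peaks named for Gm46942 (22.1) and Gm34994 (21.3) came next, at distal members 32397 and 24902 bp from the TSS of those genes. NSC H3K4me3 at these 6 members was between 3.17 and 7.04, and Gm52440 alone had both NSC marks over 6. The 200 bp around the middle of the first 3 peaks show what the strongest sites looked like, with a run of at least 12 A or T in capitals.
Kirrel3, OLIG2 of OPCs, chr9:34995839-34996038: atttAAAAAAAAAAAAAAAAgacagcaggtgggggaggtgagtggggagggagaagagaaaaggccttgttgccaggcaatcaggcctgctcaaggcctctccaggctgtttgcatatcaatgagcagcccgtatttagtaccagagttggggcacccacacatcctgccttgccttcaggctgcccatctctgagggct
Gm52440, OLIG2 of NFOs, chrX:38636723-38636922: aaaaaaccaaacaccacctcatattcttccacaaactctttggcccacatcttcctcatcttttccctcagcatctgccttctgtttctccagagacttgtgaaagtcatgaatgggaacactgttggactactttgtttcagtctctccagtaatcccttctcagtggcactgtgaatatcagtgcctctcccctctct
Gm34664, OLIG2 of NFOs, chr7:68908532-68908731: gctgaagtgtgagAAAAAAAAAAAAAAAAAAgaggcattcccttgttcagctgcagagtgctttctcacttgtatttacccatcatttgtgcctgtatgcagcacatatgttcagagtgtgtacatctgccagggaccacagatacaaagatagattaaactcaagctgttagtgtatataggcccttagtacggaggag

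The Kirrel3 and Gm34664 windows held runs of 16 and 18 bases, and the Gm52440 window none over 6. The E-box CAGCTG, searched on both strands in the 200 bp at the middle of the shared segment, was present in 204 of 3631 members (5.62%), 7.60% of domains with any OPC mark and 10.9% of RefSeq promoters trimmed to 200 bp. The E-box CAGATG, which reads CATCTG on the other strand, was present in 14.1%, 12.4% and 11.6%. At members whose shared segment overlapped an OLIG2 peak of NFOs, CAGATG was in 49 of 277 windows (17.7%, 13.4 to 22.7%), an interval that includes the 14.1% of all members. Of the OLIG2 peak windows printed above, that of Gm34664 held CAGCTG and CATCTG, and that of Gm52440 held CATCTG. The Kirrel3 window held neither E-box on either strand. A match is a description of the letters in the window and no evidence of a bound site.

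Members were spread over the genome, with a few dense clusters. Members occurred in 1637 windows of 1 Mb, of which the densest lay on chromosome 4 from 147 to 148 Mb, where 18 of 22 NSC bivalent domains were members and 9 genes were named Zfp. Next were chromosome 4 from 145 to 146 Mb (13 of 15) and chromosome 13 from 65 to 66 Mb (12 of 17), and 11 members lay in each of 3 other windows of chromosome 13 between 62 and 68 Mb, the last of which held 24 Zfp genes. The other 4 of these windows held 0 to 3 Zfp genes, and the windows with 9 or 10 members on chromosomes 4, 5, 10 and 11 held 0. Another member lay within 10 kb of 309 members (8.51%) and within 50 kb of 1001 (27.6%).

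Zfp genes encode zinc-finger proteins, many of the KRAB class that recruits heterochromatin to repeats, and they were looked at after the clusters had been seen. A gene named Zfp lay over or within 2 kb of 83 members (2.28%, 1.82 to 2.82%), against 1.8% of all NSC bivalent domains (1.50 to 2.15%), 4.08% of domains with OPC H3K4me3 alone, 0.311% with OPC H3K27me3 alone and 0.962% with both. The members with the widest shared segments included Zfp975 (1998 bp, in an exon) and Zfp260 (1685 bp), beside Gm13128 (2090 bp), Gm10253 (1749 bp), Gm11228 (1727 bp), Firre (1613 bp), a lncRNA gene of chromosome X, and 2 contig members (2615 and 2334 bp). The Gm13128 and Gm11228 members were distal, 7389 and 78308 bp from the TSS of the named gene. NFO H3K4me3 was listed at the members of Zfp975 (4.11), Zfp260 (3.93), Gm11228 (2.98) and Gm13128 (2.95), but not at that of Firre.

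The cell types and marks were checked once over the whole lists. H3K4me3 lay near the TSS of 6 of 6 NSC markers in NSCs, 7 of 8 oligodendrocyte lineage markers in OPCs and 5 of 8 in NFOs, where Cspg4, Mbp and Mog lacked it, and of 0 of 4 microglia markers in all 3. It also lay at 6 of 8 oligodendrocyte lineage markers in NSCs, at 6 of 6 NSC markers in OPCs and 4 of 6 in NFOs, and at 4, 5 and 4 of 5 neuron markers in NSCs, OPCs and NFOs, so these markers did not tell the 3 neural cell types apart. The antibody labels of the histone samples name the other mark than the titles do, and the titles were used. Lists titled H3K4me3 had 45.1 to 73.7% of their peaks within 1 kb of a TSS and lists titled H3K27me3 8.36 to 21.7%. Peak lists give no read depth, so a peak that is not listed may be absent or below detection.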

How the data were processed

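ChIP-Seq called peaks of NSCs, OPCs and NFOs were analysed as deposited, from 8 of 13 samples; input DNA and RIP-Seq were not used here. Per the study methods, the authors aligned reads with Bowtie2 against mm10 and used those placed uniquely; MACS2 in broad mode gave the histone peaks, SPP the OLIG2 peaks, and ENCODE blacklist regions were dropped. The deposited lists give fold enrichment, a ratio to input, and −log10 values of p and FDR as the authors' callers wrote them; listed peaks below the stated filter were kept. Read depth per library is not given in the sources used here.

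NSC peaks were joined by overlap of 1 bp in Python 3.11.15 with pandas 2.3.3 and SciPy 1.17.1. TSSs came from GENCODE M21 (protein-coding and lncRNA genes) and 7912 further NCBI lncRNAs, and sequence from the GRCm38 RefSeq genome. With 1 library per group no test was made. Interval code was tested on simulated data. Named members were the 8 with the highest enrichment of each NSC mark, the 8 widest shared segments, the 6 strongest overlapping NFO H3K4me3, NFO H3K27me3 and OLIG2 peaks, those with both NFO marks, those within 2 kb of a listed gene, and 3 on each side of each overlap threshold. One marker of the oligodendrocyte lineage fixed for the label check is not reported here. Sox2ot and the island-like members were named after their values were seen. Members took the name of the gene with the nearest TSS at any distance, or of the listed gene within 2 kb. Members and gene lists were chosen with earlier results of these data known, and the A or T runs after the sequences were seen.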

Additional observations from a re-analysis of the deposited data

How the results depend on the processing

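The number of members was 1862 when NSC and OPC lists were filtered as the methods state, and 1741 with NSC lists alone filtered. It was 129 at NSC enrichment over 5, 1896 with at least 200 bp shared, and 1263 with H3K27me3 peaks of at least 500 bp. Without a run of A or T in the 200 bp window it was 980, an alternative chosen after seeing the data. The share within 1 kb of a TSS was 8.81% with 200 bp shared, 4.68% for protein-coding genes, 3.83% with 1 TSS per gene and 15.7% at 2 kb. The share with NFO H3K4me3 was 11.4% with filtered NSC and OPC lists, 14.3% with 200 bp shared, 5.33% with filtered NFO peaks and 5.24% with at least 50% of the domain covered, and that with NFO H3K27me3 was 0.906% within 1 kb and 0.192% with 50% covered. For OLIG2 of OPCs the share was 9.44% with 200 bp shared, 7.00% with filtered OLIG2 peaks and 4.06% by overlap, and for OLIG2 of NFOs 14.6% with filtered histone lists, 18.3% with 200 bp shared, 14.0% with filtered OLIG2 peaks and 8.76% by overlap. Median width was 352 bp with filtered lists, 508 bp with 200 bp shared and 717 bp without a run, and median CpG observed/expected was 0.183 with 200 bp shared, 0.157 over the shared segment and 0.168 without a run. The share with a run was 79.8% with filtered lists and 63.0% with 200 bp shared. The cause of these shifts was not tested beyond the narrower sets and wider distances that the alternatives define. With all NSC bivalent domains redefined and counted in the same way, the member share was the lower one in 8 of 8 settings for TSSs and for each NFO mark and in 7 of 7 for OLIG2 of each cell type, over all widths together. The gap was smallest for OLIG2 of NFOs with 200 bp shared (18.3% against 19.3%). No paired analysis was possible because each cell type and mark has 1 library and no result comes from a test. Peak lists without read depth cannot separate an absent mark from one below detection.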

Other observations

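NSC peaks that overlapped no peak of the other mark were also often without an OPC peak when narrow. Among NSC H3K4me3 peaks under 300 bp, 88.2% without an H3K27me3 partner and 68.2% with one overlapped no OPC peak of either mark, and among NSC H3K27me3 peaks under 300 bp the shares were 90.1% and 77.0%. Narrow NSC peaks of a single mark thus lacked OPC peaks in larger shares than paired ones. The narrow unpaired peaks also held a run of at least 12 A or T in 71.3% (H3K4me3) and 86.9% (H3K27me3) of their 200 bp windows.

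By chromosome, members made up between 44.1% (chromosome 19) and 61.8% (chromosome 18) of NSC bivalent domains on the autosomes and 56.6% on chromosome X, and 14 of 15 on chromosome Y.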
